A study of Mus musculus with 8 samples.

Results

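The 10 genes described here are the circadian clock genes Arntl, Clock, Npas2, Per1, Per2, Cry1, Nr1d1 and Nr1d2 and the PAR bZIP genes Dbp and Tef, measured in the livers of mice fed alcohol or control diet. They were found as the probe-sets that the array annotation names with the symbol of a member or its synonym, out of 14860 genes with a probe-set of their own. All 10 had 1 probe-set. For 8 of them it was their own, whereas Per2 and Nr1d1 each shared theirs with another gene. Liver RNA of 8 wild type male C57Bl6J mice was hybridized to Affymetrix Mouse Exon 1.0 ST arrays, 1 array per mouse. The 4 mice on the alcohol diet were 6 weeks old at the start. They received the Lieber-DeCarli liquid diet with 2.06% alcohol for 3 days, 4.18% for 4 days and 6.2% for 5 weeks, the last supplying 35% of the calories. The 6.2% is that of the sample record, and the methods of the study give a slightly higher last concentration. The 4 control mice, also 6 weeks old, were pair-fed for 6 weeks with a liquid diet of equal calories in which maltose and dextrin took the place of alcohol. The numbers 1 to 4 only name the mice within a diet, and nothing in the labels ties an alcohol mouse to the control mouse it was pair-fed with. The mice were kept on a fixed light and dark cycle, but the time of day at which each liver was taken is not given in the sources used here.

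The circadian clock is a loop of transcription factors that runs with a period of about a day in nearly every cell, the hepatocyte included. BMAL1, encoded by Arntl, pairs with CLOCK or NPAS2, binds E-box elements and switches on the Per and Cry genes, whose proteins feed back to inhibit the pair. A second loop is formed by REV-ERB alpha and beta, encoded by Nr1d1 and Nr1d2, which repress Arntl through ROR elements that the activating ROR receptors also bind. DBP and TEF are PAR bZIP factors: their genes are driven through E-boxes, and the proteins bind D-box elements of output genes, many of them for the handling of drugs and other foreign compounds. In mouse liver the RNAs of Dbp, Per1, Nr1d1 and Arntl swing widely over the day, with Arntl close to opposite in phase to Dbp, so the level in a single liver depends on the hour at which it was taken.

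The elements through which the loop acts are shown first, because the members are ordered below by the element they bind or answer to. RefSeq promoter windows of the GRCm38.p6 assembly, reaching from 250 bases before to 50 bases after a transcript start, were at hand for 9 of the 10 members, 14 windows in all. Both strands were searched for the E-box CACGTG, the D-box TTATGTAA, the cAMP response element TGACGTCA and the ROR element by name. The E-box was present in 4 windows belonging to 3 members, Per1, Cry1 and Tef, and 7.15% of all 32851 mouse windows held it. In the lines that follow, capitals mark the element, and the bases around it are printed 5′ to 3′ on the strand of the gene.
Per1, chr11:69098753-69098818, plus strand: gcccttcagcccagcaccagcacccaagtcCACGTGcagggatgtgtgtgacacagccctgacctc
Cry1, chr10:85185079-85185144, minus strand: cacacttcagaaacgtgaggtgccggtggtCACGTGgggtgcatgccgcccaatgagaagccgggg
Tef first start, chr15:81802516-81802581, plus strand: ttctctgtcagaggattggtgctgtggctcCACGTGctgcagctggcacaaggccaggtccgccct
Tef second start, chr15:81811246-81811311, plus strand: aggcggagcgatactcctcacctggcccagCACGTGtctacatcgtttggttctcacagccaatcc
Arntl, chr7:113207528-113207557, plus strand, ROR element: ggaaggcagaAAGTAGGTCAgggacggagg
The first base of the E-box lay at -166 from the start in Per1, at -60 in Cry1, and at -127 and -138 from the 2 starts of Tef. The ROR element of Arntl began at +28, on the strand of the gene, and 0.773% of all windows held such an element. No member window held the D-box (0.938% of all windows) or the cAMP response element (1.79%). A match describes the letters in the window and nothing about binding, and no match says only that these letters are not in this window.

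For the comparison of the diets, the deposited log2 values were fitted with limma as alcohol minus control over the probe-sets expressed in liver. These were ranked by their fourth-highest value over the arrays, and as many were kept as in the methods of the study. The p-values were adjusted by the Benjamini-Hochberg method over all of them, and a probe-set was called at an adjusted p under 0.05. The filter kept 8 of the 10 members. Arntl and Npas2, whose fourth-highest values lay under the 5.56 of the last probe-set kept, were read from the same fit over all probe-sets. All p-values measure the spread between the mice as labelled.

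Dbp was lower in the livers of mice fed alcohol, and it was the only 1 of the 8 kept members that was called. No kept member was called higher, and 7 were not called. Over all kept probe-sets 10.2% were called higher and 5.98% lower, and the 12.5% of kept members called lower is a single gene. The balance of this background depended on the scaling of the arrays, with 899 probe-sets higher and 838 lower after quantile normalization and 729 higher and 886 lower after median centring, against 1059 higher and 624 lower in the values as deposited. At P of 0.0001 or less with at least 1.5-fold, the thresholds of the study, 0 of the members passed, against 1.76% of all kept probe-sets in either direction. Arntl, Clock and Dbp were the 3 members with an unadjusted p under 0.05, the first 2 with higher means on alcohol and Dbp with a lower one. The median change of the kept members was -0.05 on the log2 scale, beside 0.05 for all kept probe-sets. In whole liver, fewer cells that express a gene and less of its RNA per cell cannot be told apart.

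**Figure D1:**
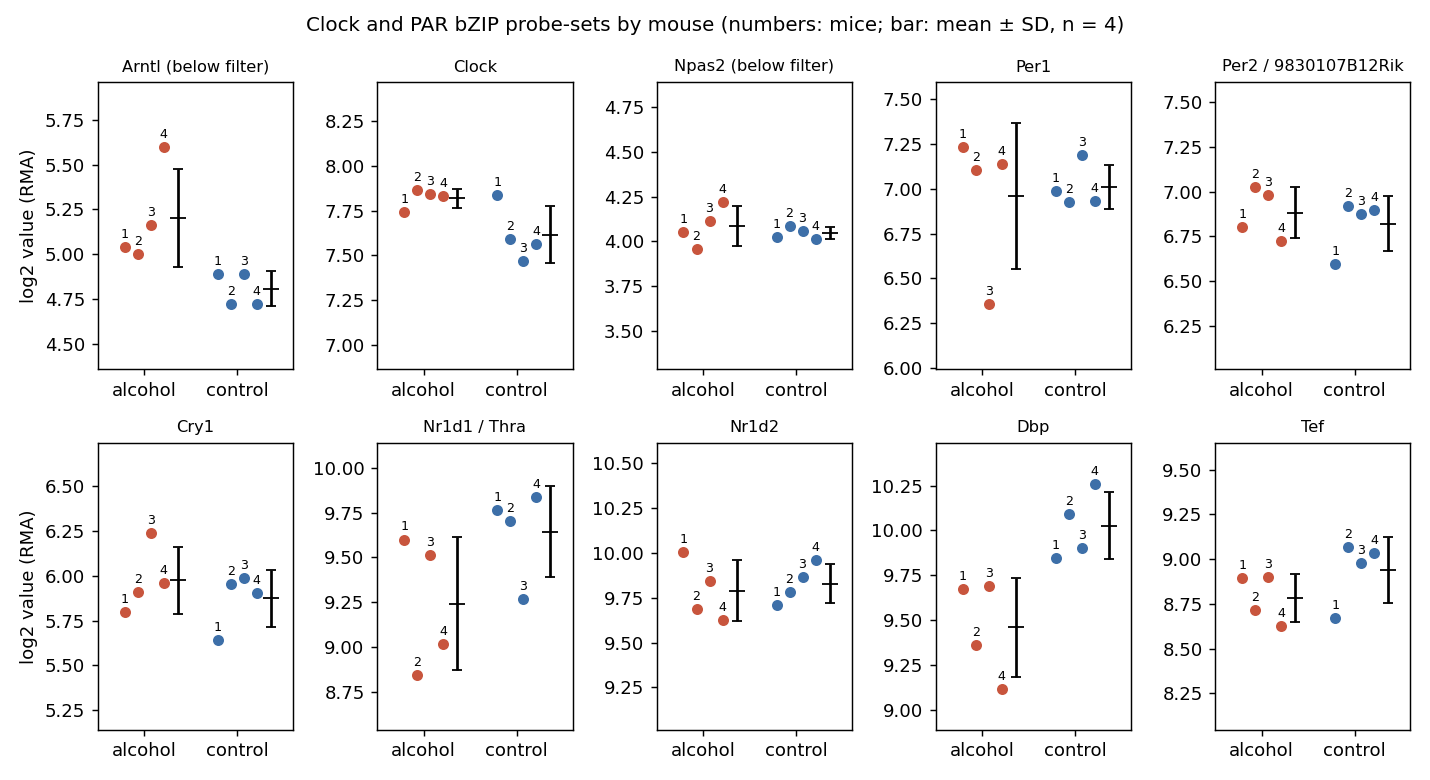
Log2 RMA value (vertical axis) of each of the 10 members in the 4 alcohol mice (red, left) and the 4 control mice (blue, right); the number beside a point names the mouse, and the bar is the mean ± SD (n = 4). Every panel spans the same number of log2 units. Only Arntl and Dbp have groups that do not overlap, Arntl higher and Dbp lower on alcohol. Of all kept probe-sets, which include Dbp but not Arntl, 15.5% have groups apart with alcohol higher and 8.14% with alcohol lower.

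None of the activators of the loop was called. Arntl and Clock had higher means on alcohol, and the difference in Npas2 was near 0, with a sign that turned after quantile normalization (-0.00147), after median centring (-0.0206) and without alcohol mouse 4 (-0.00522). Arntl (chr7:113178471-113314126, probe-set 6963558) had log2 values of 5.04, 5.00, 5.16 and 5.60 in alcohol mice 1 to 4, against 4.89, 4.72, 4.89 and 4.72 in control mice 1 to 4. Every alcohol mouse lay above every control mouse, with alcohol mouse 4 well above the other three. The means were 5.20 ± 0.27 in alcohol mice and 4.81 ± 0.10 in control mice (SD, n = 4 each), a difference of 0.39 (SE 0.14, 95% interval 0.08 to 0.71) or 1.31-fold. An exact two-sided permutation test over the 70 arrangements of 4 mice against 4 gave p = 0.0286, the smallest that it can give. Of all kept probe-sets, to which Arntl does not belong, 15.5% had every alcohol mouse above every control mouse. In the fit over all probe-sets, where 2.09% were called higher and 1.22% lower, the limma p of 0.0210 became an adjusted p of 0.180, and Arntl was not called. Without alcohol mouse 4 the difference in Arntl was 0.26 (adjusted p = 0.206, limma).

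Clock (chr5:76209868-76305603), the partner of BMAL1, measured 7.74, 7.86, 7.84 and 7.83 in the alcohol mice, against 7.84, 7.59, 7.47 and 7.57 in the control mice. The alcohol mice lay close together, and the control mice spread more widely, with control mouse 1 at the level of the alcohol mice. The means of Clock were 7.82 ± 0.05 in alcohol mice and 7.62 ± 0.16 in control mice (SD, n = 4 each). Its difference of 0.20 (SE 0.09, 95% interval 0.01 to 0.40) had an adjusted p of 0.147 by limma and an exact permutation p of 0.0857. When control mouse 1 was left out, the difference was 0.28 and Clock was called (adjusted p = 0.0464, limma). Npas2 (chr1:39193702-39363240) encodes a relative of CLOCK that can take its place. It was dim on these arrays, with values of 4.05, 3.96, 4.11 and 4.22 in the alcohol mice and of 4.03, 4.09, 4.06 and 4.01 in the control mice. The groups overlapped throughout, with a difference of 0.04 (95% interval -0.14 to 0.22, adjusted p = 0.859 by limma over all probe-sets).

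The inhibitors of the activator pair had overlapping groups and no call. Per1 (chr11:69095108-69109965) had log2 values of 7.23, 7.11, 6.35 and 7.14 in the alcohol mice, against 6.99, 6.93, 7.19 and 6.93 in the control mice. Apart from alcohol mouse 3, which stood far below, the alcohol mice were above most of the controls. The difference was -0.05 (95% interval -0.46 to 0.35, adjusted p = 0.879 by limma), and without alcohol mouse 3 it was 0.15 (adjusted p = 0.270, limma). The probe-set that carries the name Per2 is shared with 9830107B12Rik, whose locus is on chr17 (48099816 to 48146307) while that of Per2 is on chr1 (91415977 to 91459351), so the signal cannot be assigned to either. It measured 6.80, 7.02, 6.98 and 6.72 in the alcohol mice, against 6.60, 6.92, 6.87 and 6.90 in the control mice. Control mouse 1 was the low one here, and the difference was 0.06 (95% interval -0.17 to 0.29, adjusted p = 0.728 by limma). Cry1 (chr10:85131700-85185054), the partner of the PER proteins, had values of 5.80, 5.91, 6.24 and 5.96 in the alcohol mice and of 5.64, 5.96, 5.99 and 5.90 in the control mice. Alcohol mouse 3 was the highest and control mouse 1 the lowest of the 8, with a difference of 0.10 (95% interval -0.16 to 0.36, adjusted p = 0.586 by limma). For Per1, the Per2 probe-set and Cry1 the exact permutation p was 0.943, 0.571 and 0.457.

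Of the REV-ERB genes, the probe-set named for Nr1d1 had the larger difference, again without a call. It is shared with Thra, a thyroid hormone receptor gene whose 3′ end overlaps Nr1d1 at chr11:98767932-98769006, and the annotation does not assign it to 1 of the 2 genes. Its log2 values were 9.60, 8.84, 9.51 and 9.02 in the alcohol mice, against 9.76, 9.70, 9.27 and 9.84 in the control mice. Alcohol mice 2 and 4 were below every control mouse, and alcohol mice 1 and 3 fell within the control range. The means were 9.24 ± 0.37 in alcohol mice and 9.64 ± 0.25 in control mice (SD, n = 4 each), and the difference was -0.40 (SE 0.19, 95% interval -0.83 to 0.03, adjusted p = 0.183 by limma, exact permutation p = 0.171). Nr1d2 (chr14:18204056-18239106), which has a probe-set of its own, measured 10.003, 9.69, 9.84 and 9.62 in the alcohol mice and 9.71, 9.78, 9.86 and 9.96 in the control mice. The lowest and the highest of the 8 values both came from alcohol mice. Its difference was -0.04 (95% interval -0.26 to 0.18, adjusted p = 0.825 by limma, exact permutation p = 0.686).

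Dbp (chr7:45705100-45710203, probe-set 6960404), the PAR bZIP factor whose RNA follows the activator pair most directly, had log2 values of 9.67, 9.36, 9.69 and 9.11 in the alcohol mice, against 9.85, 10.09, 9.90 and 10.26 in the control mice. All 4 alcohol mice were below all 4 control mice. Groups apart in this direction were found for 1 of the 8 kept members and for 8.14% of all kept probe-sets, and groups apart in the other direction for 0 of the 8 and 15.5%. The means of Dbp were 9.46 ± 0.28 in alcohol mice and 10.03 ± 0.19 in control mice (SD, n = 4 each). Its level fell by 0.57 on the log2 scale (SE 0.15, 95% interval -0.90 to -0.24), which is 0.675-fold of the control level (95% interval 0.538 to 0.848), with an adjusted p of 0.0293 by limma and an exact permutation p of 0.0286. The call was close to the threshold. It was lost without alcohol mouse 2 (adjusted p = 0.0736), without alcohol mouse 4 (0.0532) and without control mouse 2 (0.0755), 3 (0.0536) or 4 (0.0802), all by limma, and with no expression filter (0.0970). The difference lay between -0.64 and -0.45 in all 15 alternatives tried.

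Tef (chr15:81802673-81826863), the other PAR bZIP member, measured 8.89, 8.72, 8.90 and 8.63 in the alcohol mice, against 8.67, 9.07, 8.98 and 9.04 in the control mice. Control mice 2, 3 and 4 were above all alcohol mice, and control mouse 1 was below 3 of them. The difference of -0.16 (SE 0.11, 95% interval -0.40 to 0.09) had an adjusted p of 0.354 by limma and an exact permutation p of 0.200. The third PAR bZIP gene, Hlf, is no member and had 7.71, 7.99, 7.80 and 8.02 in the alcohol mice, against 7.88, 7.91, 7.88 and 8.09 in the control mice (difference -0.06, 95% interval -0.27 to 0.14, adjusted p = 0.684 by limma). Nfil3, which encodes a repressor that competes for the D-box, measured 7.32, 6.85, 7.25 and 6.79 in the alcohol mice and 7.82, 7.04, 7.04 and 7.11 in the control mice (difference -0.20, adjusted p = 0.529 by limma). A call among the factors that read the D-box was obtained for Dbp alone, and whether Dbp and Tef differed in their change was not tested.

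**Figure D2:**
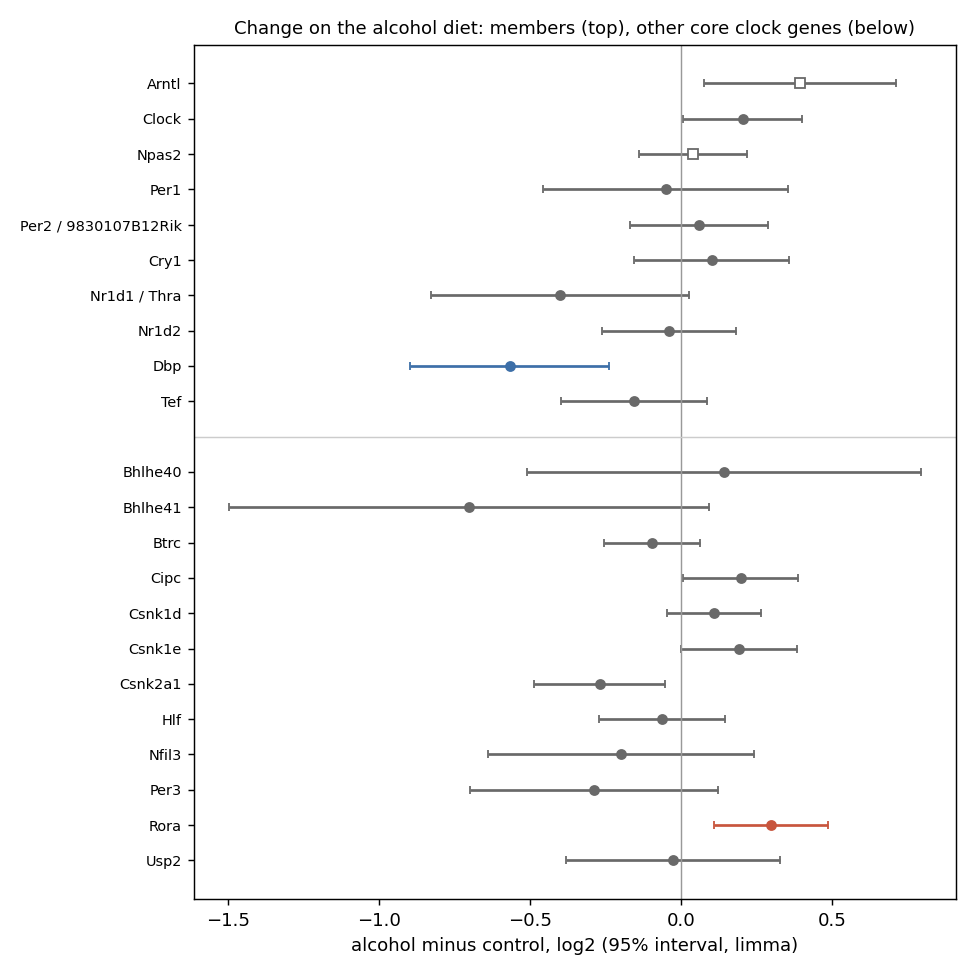
Difference between the diets (horizontal axis, alcohol minus control, log2, with the 95% interval of limma) for the 10 members (top) and the 12 tested genes of the other core clock list (bottom). Open squares are the members below the filter, blue marks the gene called lower (Dbp, -0.57) and red the gene called higher (Rora, 0.30); grey genes were not called.

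Other genes of the clock loops and of the turnover of their proteins were taken from a list, of which 12 were tested and 4 were below the filter. Among the 12 tested, 1 was called higher, 0 lower and 11 not, with a median change of -0.05. The shares over all kept probe-sets were 10.2% higher and 5.98% lower. The called gene was Rora, encoding an activating receptor that competes with the REV-ERBs for the ROR element. It had log2 values of 8.43, 8.42, 8.39 and 8.23 in the alcohol mice, against 8.06, 8.24, 8.01 and 7.97 in the control mice. Alcohol mouse 4 and control mouse 2 were side by side, and the other mice were apart. Rora rose by 0.30 (SE 0.08, 95% interval 0.11 to 0.49, adjusted p = 0.0405 by limma), a call that was lost in 10 of 15 alternatives, among them those without alcohol mouse 1, 2 or 3 and without control mouse 1, 3 or 4 (adjusted p up to 0.119). Per3, a relative of Per1 with a large daily swing, measured 7.25, 7.17, 7.11 and 6.88 in the alcohol mice and 6.87, 7.54, 7.33 and 7.82 in the control mice (difference -0.29, 95% interval -0.70 to 0.12, adjusted p = 0.312 by limma). Control mouse 1 was the lowest of all 8 in Per3, and the other controls were above every alcohol mouse. Bhlhe41 and Bhlhe40, which encode the repressors DEC2 and DEC1, had the widest spread of the list among the alcohol mice. Bhlhe41 measured 7.18, 5.75, 6.47 and 6.02 in the alcohol mice and 6.44, 7.67, 6.66 and 7.45 in the control mice (difference -0.70, 95% interval -1.50 to 0.09, adjusted p = 0.207 by limma). Bhlhe40 had 9.95, 8.60, 9.26 and 8.62 in the alcohol mice and 8.60, 9.29, 8.88 and 9.09 in the control mice (difference 0.14, adjusted p = 0.782 by limma). In both genes alcohol mouse 1 was the highest and control mouse 1 the lowest of their diets.

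In some members the mice of 1 diet differed more than in most kept probe-sets, and in others less. The SD over the 4 alcohol mice was 0.41 for Per1, 0.37 for the Nr1d1 and Thra probe-set and 0.28 for Dbp, and these exceeded the SD of 94.0%, 92.6% and 84.0% of the kept probe-sets. For Per1 the spread was that of 1 mouse, as alcohol mouse 3 was at 6.35 and the other alcohol mice between 7.11 and 7.23. Over the 4 control mice the SD was 0.25 for the Nr1d1 and Thra probe-set, 0.19 for Dbp and 0.18 for Tef, above that of 88.5%, 77.6% and 76.0% of the kept probe-sets. Clock stood at the other end in the alcohol mice, with an SD larger than that of 5.70% of the kept probe-sets. The Per2 probe-set and Tef were under the median there as well, at 46.4% and 43.1%. In all, 5 of the 8 kept members in the alcohol mice and 7 of the 8 in the control mice had an SD above the median of the kept probe-sets. This median was 0.150 in the alcohol mice and 0.119 in the control mice. The 5 of 8 is near the even split that a median gives, the 7 of 8 is above it, and neither was tested.

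The members are next followed mouse by mouse. Alcohol mouse 4 had the lowest value of its diet in 4 of the 8 kept members, Dbp, Tef, Nr1d2 and the Per2 probe-set, and in 24.4% of all kept probe-sets. The same mouse had the highest Arntl and Npas2 of its diet. It was 0.34 below the mean of the alcohol mice for Dbp, -0.16 from it for Tef and 0.39 above it for Arntl. In control mouse 1, 5 of the 8 kept members were the lowest of the diet, namely Dbp, Tef, Nr1d2, Cry1 and the Per2 probe-set, against 19.2% of all kept probe-sets, and Clock was the highest. This mouse deviated by -0.18 for Dbp, -0.27 for Tef and 0.22 for Clock from the control mean. Control mouse 4 had the highest Dbp, Nr1d2 and Nr1d1 and Thra signal of its diet, 3 of the 8 kept members, beside 33.2% of all kept probe-sets. Alcohol mouse 3 was the highest of its diet in 3 as well, Dbp, Tef and Cry1, beside 19.4% of all kept probe-sets. Alcohol mouse 1 was the highest in Per1, Nr1d2 and the Nr1d1 and Thra probe-set, also 3, beside 24.4%. Alcohol mouse 2 and control mice 2 and 3 were the highest in 2 each, beside 32.1%, 18.6% and 13.3%. Over the 12 other core clock genes tested, control mouse 1 was the lowest of its diet in 6 (Per3 and Bhlhe41 among them) and control mouse 4 the highest in 5. Alcohol mouse 1 was the highest in 9, beside 24.4% of all kept probe-sets, and alcohol mouse 4 the lowest in 6. The genes of 1 mouse come from 1 RNA and 1 array, so these counts describe the 8 livers and carry no test. Whether the hour of collection had a part in them was not tested, since no source used here gives it.

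**Figure D3:**
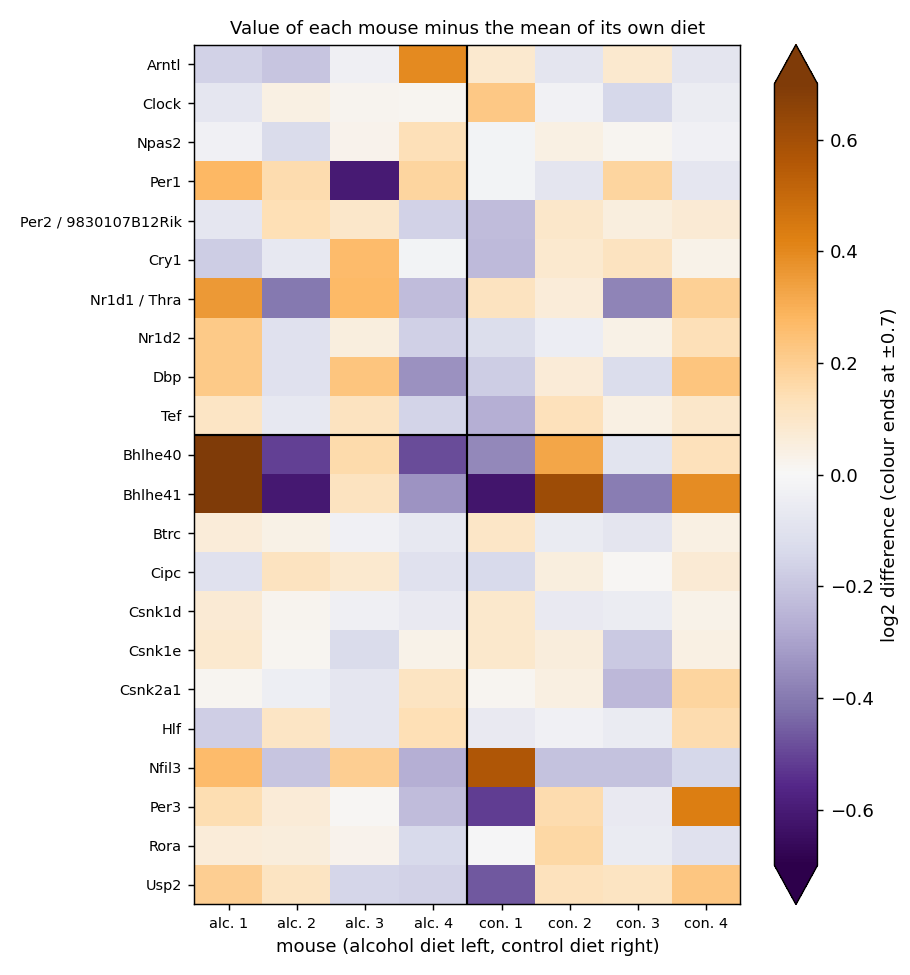
Deviation of each mouse (columns; alcohol mice left, control mice right) from the mean of its own diet for the 10 members (top) and the 12 other core clock genes tested (bottom), in log2 units; orange is above and purple below the mean, and colours end at ±0.7. Alcohol mouse 4 is above the mean for Arntl (0.39) and below it for Dbp (-0.34), and control mouse 1 is below it for Dbp (-0.18), Tef (-0.27) and the Per2 probe-set (-0.23).

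The genes whose values over the 8 livers were most like those of Dbp and of Arntl were looked up among the kept probe-sets with 1 symbol. Likeness was the root mean square difference over the 8 arrays after each gene was centred on its own mean, so that 0 would be identity. For Dbp, which itself varied by 0.35 around its mean on this measure, the closest of 7812 probe-sets were Polg2 (0.0858), Hykk (0.0885), Syt1 (0.0963), Narf (0.106) and Ugt2a3 (0.113). For Arntl, which varied by 0.265, the closest of 7813 were Mfsd13a (0.0788), Agt (0.0825), Tango2 (0.0828), Grina (0.0875) and Scpep1 (0.0891). None of these 10 is a member or one of the other core clock genes, but many of those could not be returned. Arntl and Npas2 were below the filter, the Per2 and Nr1d1 probe-sets carry more than 1 symbol, and some other core clock genes were not tested. A gene with the same pattern at a larger or smaller size, or turned over, also counts as unlike here. The measure takes in the difference between the diets as well as the spread within them, and all values share the same 8 arrays.

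**Figure D4:**
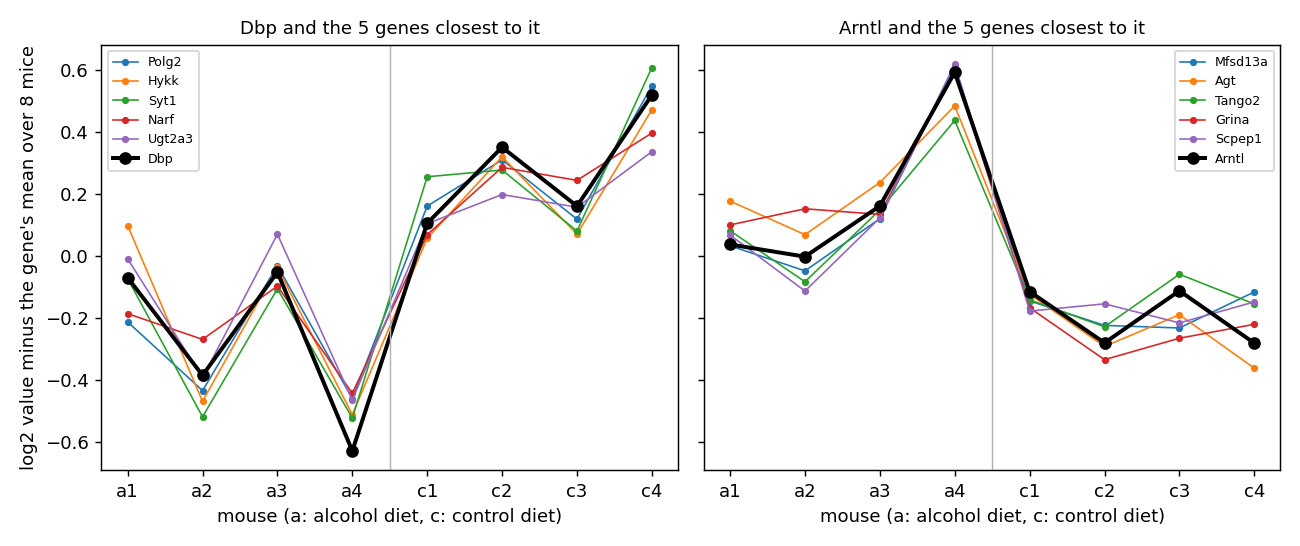
Log2 value minus the mean of the gene over the 8 mice (vertical axis) for Dbp (left panel, black) and Arntl (right panel, black) with the 5 genes closest to each (colours), in alcohol mice 1 to 4 and then control mice 1 to 4. Alcohol mouse 4 is the lowest point of Dbp and the highest point of Arntl, and the genes shown follow both within 0.0788 to 0.113 (root mean square difference).

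Among 14 rhythmic output genes of the liver clock, 11 were tested, with a median change of 0.21. Of these 1 was called higher, 1 lower and 9 not, beside 10.2% higher and 5.98% lower of all kept probe-sets. Elovl3, an enzyme of fatty acid elongation whose RNA has a strong daily rhythm in mouse liver, had 9.54, 7.82, 9.53 and 6.30 in the alcohol mice, against 11.04, 10.80, 11.01 and 10.64 in the control mice. All alcohol mice were below all controls, and alcohol mouse 4 was the lowest. Elovl3 fell by 2.57 (SE 0.63, 95% interval -4.00 to -1.15, adjusted p = 0.0249 by limma). This call too was lost in 6 of 15 alternatives, namely with no filter, without alcohol mouse 2 and without any 1 of the 4 control mice (adjusted p up to 0.0868). Tspan4, a tetraspanin gene, had 9.14, 9.35, 8.88 and 8.96 in the alcohol mice and 8.77, 8.52, 8.60 and 8.70 in the control mice. It rose by 0.44 (adjusted p = 0.0279 by limma), and its call was lost in 6 of 15 alternatives, with no filter and without alcohol mouse 1 or 2 or control mouse 2, 3 or 4 (adjusted p up to 0.0916). Rgs16, a regulator of G protein signalling that is rhythmic in liver, spread widely, with 11.20, 8.39, 10.91 and 9.52 in the alcohol mice and 8.68, 9.70, 9.21 and 10.13 in the control mice (difference 0.57, 95% interval -0.74 to 1.89, adjusted p = 0.541 by limma).

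Genes known as targets of the PAR bZIP factors were called in both directions. Of 13 listed, 7 had a probe-set of their own and were tested: 3 were called higher, 1 lower and 3 not, with a median change of 0.29. Of all kept probe-sets, 10.2% were called higher and 5.98% lower. Cyp2b10, a cytochrome P450 gene, rose by 7.78 (adjusted p = 2.14e-05 by limma), Nr1i3, encoding the xenobiotic receptor CAR, by 0.61 (adjusted p = 0.00186) and Aldh1a1, an aldehyde dehydrogenase gene, by 0.37 (adjusted p = 0.00997). Cyp2b10 was at 12.11, 11.78, 11.04 and 12.69 in the alcohol mice, against 3.51, 4.71, 4.24 and 4.04 in the control mice. Every control value of Cyp2b10 lay under the 5.56 of the last probe-set kept. It thus passed the filter only through the alcohol mice, where it was high, and its call adds no support for a direction of the list. Nr1i3 had 11.01, 11.02, 11.02 and 11.12 in the alcohol mice, against 10.46, 10.38, 10.32 and 10.56 in the control mice, 2 groups that were tight and well apart. Ppara, the receptor that governs fatty acid oxidation, was called lower, with 10.16, 9.98, 9.91 and 9.67 in the alcohol mice and 10.43, 10.60, 10.42 and 10.66 in the control mice (difference -0.60, adjusted p = 0.00857 by limma). Cyp2b10, Nr1i3 and Ppara were named in the study from these same mice, so they are not independent evidence of a direction. Alas1, Cyp7a1 and Ces2a were not called. Another 5 genes of the list were on probe-sets shared with close relatives. The probe-set of Cyp2a4 and Cyp2a5 was higher by 1.29 (adjusted p = 0.000657 by limma), while that of Ces3a and Ces3b differed by -0.63 (adjusted p = 0.173). Cyp2c50, Cyp2c54 and Cyp2c37 shared 3 probe-sets. That with the highest mean was higher by 0.87 (adjusted p = 0.00510 by limma), and the others are not described here.

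The medians of the arrays lay between 5.10 and 5.14 in the alcohol mice and between 5.04 and 5.08 in the control mice, so that every alcohol array was slightly above every control array. Correlations between arrays of 1 diet ran from 0.983 to 0.984 among the alcohol mice and from 0.984 to 0.987 among the control mice. The 3 hepatocyte markers tested, with a mean level of 13.1 to 13.2 in either diet, and the 6 Kupffer cell markers gave no call. Of 6 sinusoidal endothelial markers 2 were called higher (Lyve1 by 1.23, Clec4g by 0.47), and of 4 stellate cell markers Lrat was higher by 0.54 and Reln lower by 0.34, a call lost with no filter and without control mouse 2 or 4 (adjusted p up to 0.0729). The neutrophil, T and NK cell and B cell markers were all below the filter. Beside these marker counts, 10.2% of all kept probe-sets were called higher and 5.98% lower. Beside the fall of Dbp, Alas2, the 1 tested marker of erythroid cells with a probe-set of its own, fell by 2.07 (adjusted p = 0.00467 by limma), with 8.26, 7.09, 8.34 and 6.86 in the alcohol mice and 9.69, 9.75, 9.59 and 9.82 in the control mice. The lowest and the highest Alas2 were those of alcohol mouse 4 and control mouse 4. Over all kept probe-sets these mice were the lowest and the highest of their diet in 24.4% and 33.2%. The probe-set shared by the globin genes Hbb-b1 and Hbb-b2 fell by 3.14 (adjusted p = 0.00889 by limma), with 4.92, 4.198, 6.26 and 7.18 in the alcohol mice and 8.99, 7.96, 9.13 and 9.06 in the control mice. Here alcohol mouse 4 was the highest of its diet. Alcohol mice 1 and 2 lay under the 5.56 of the last probe-set kept. The globin probe-set thus passed the filter only through the control mice, where it was high, and its call adds no support to that of Alas2. The part of these cell types in the changes of the members was not tested.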

How the data were processed

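Liver RNA of 4 alcohol-fed and 4 control mice was measured on 1 array per mouse. The authors isolated the RNA with Trizol and the miRVana kit, and made the deposited log2 values with RMA in the Affymetrix Expression Console (no version given), that is with background correction, normalization across arrays and summary over the probes. The array annotation gave 14996 probe-sets a single symbol, 1019 several and 7317 none. The 2 diets were compared with limma 3.58.1 under R 4.3.3 (6 residual degrees of freedom, default moderation, Benjamini-Hochberg adjustment), and the fit was tested on simulated data.

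The number of arrays limits the precision. All 10 members were named. Of other lists the genes called were named, up to 6 a list, and the uncalled ones are given as values chosen after they were seen. Where a gene had more than 1 probe-set, that of highest mean stands for it. The members and lists were chosen with earlier results of these data known. Alternatives covered the filter, the variance model, array weights, scaling, the thresholds and leaving out each mouse. Those for genes of the other lists were added after seeing the data.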

Additional observations from a re-analysis of the deposited data

Results flagged for a closer look

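Of 52 groups of 4 mice looked at for the members and the other core clock genes, 5 held a mouse set far apart from the rest of its diet. In independent groups the rule flags about 1 in 20 by chance. These groups share the same arrays and are not independent, so no excess over that rate is claimed. Per1 in alcohol mouse 3 was at 6.35, with 0.856 of the range of the alcohol mice between it and the next mouse. In control mouse 1, 3 probe-sets stood apart. The probe-set shared by Per2 and 9830107B12Rik was low there at 6.60 (gap of 0.859 of the range), Usp2, a deubiquitinating enzyme gene, was low at 7.31 (0.836), and Nfil3 was high at 7.82 (0.911). Hlf was highest in control mouse 4 at 8.09 (0.848).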

How the results depend on the processing

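No paired analysis was possible because the labels give no replicate numbers shared between the diets and do not say which mice were pair-fed together. Among the members, Arntl, Cry1, Nr1d1 (with Thra) and Tef kept their direction and stayed uncalled in all alternatives run, and Dbp kept its direction in all 15. Differences near 0 changed sign. With array weights Per1 was 0.0421, and Npas2 was -0.00147 after quantile normalization and -0.0206 after median centring. With a mouse left out, Per1 ranged from -0.143 to 0.150 (above 0 without alcohol mouse 3 or control mouse 3), Nr1d2 from -0.111 to 0.0150 (above 0 without alcohol or control mouse 4), the Per2 probe-set from -0.0146 (without control mouse 1) to 0.114 and Npas2 from -0.00522 (without alcohol mouse 4) to 0.0827. Of the other genes named, Bhlhe40 ranged from -0.140 (without alcohol mouse 1) to 0.311, and Usp2 from -0.182 to 0.0488 (above 0 without control mouse 2, 3 or 4 and without alcohol mouse 3 or 4).

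The count of members called higher was 0, and 0 to 1 with a mouse left out (Clock). Members called lower numbered 1, and 0 with no filter and at P of 0.0001 with 1.5-fold, and 0 to 1 with a mouse left out. Other core clock genes called higher numbered 1, but 0 with no filter, array weights, quantile normalization, median centring or the thresholds of the study, and 0 to 1 with a mouse left out. Those called lower numbered 0, but 1 (Csnk2a1) after quantile normalization and median centring, and 0 to 1 with a mouse left out. All probe-sets called higher and lower, 1059 and 624, came to 488 and 285 with no filter, to 105 and 79 at the thresholds of the study, and to 595 to 1086 and 362 to 557 with a mouse left out. The share of higher calls was 62.9%, but 51.8% after quantile normalization and 45.1% after median centring, and the cause was not tested. Averaging all probe-sets of each gene changes no member, since each has 1. The number of arrays limits the precision, and Arntl and Npas2 lay under the expression filter.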

Other observations

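Genes that answer to bodily cues known to reach the liver clock were described as 3 further lists. The background for each was the 10.2% of all kept probe-sets called higher and the 5.98% called lower. Of 8 glucocorticoid target genes 5 were tested and 2 were called higher, with a median change of 0.77. Fkbp5, a co-chaperone of the glucocorticoid receptor, had log2 values of 8.42, 8.63, 7.91 and 9.56 in the alcohol mice, against 7.53, 7.44, 7.87 and 7.36 in the control mice (difference 1.08, 95% interval 0.41 to 1.75, adjusted p = 0.0376 by limma). Alcohol mouse 4 had the highest Fkbp5. The call was lost with no filter, without alcohol mouse 1 or 2 and without any 1 of the control mice (adjusted p up to 0.117 by limma). Sgk1, a kinase gene, had 6.91, 6.60, 6.55 and 6.90 in the alcohol mice and 6.12, 5.64, 6.03 and 6.09 in the control mice (difference 0.77, adjusted p = 0.00659 by limma), and was called in all 15 alternatives. Tat, a classic glucocorticoid target of the hepatocyte, differed by 0.03 (adjusted p = 0.887 by limma).

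Of 10 heat shock and cold-responsive genes 4 were tested, and Hsph1, a chaperone gene, was the 1 called, with 8.23, 8.79, 8.74 and 8.58 in the alcohol mice and 8.09, 7.46, 7.94 and 7.22 in the control mice (difference 0.91, adjusted p = 0.0168 by limma). Its call was lost with no filter (adjusted p = 0.0650) and without control mouse 2 (0.0504). Cirbp, a cold-inducible gene with a daily rhythm in liver, differed by -0.04 (95% interval -0.30 to 0.23, adjusted p = 0.866 by limma). Of 13 genes that respond to feeding and fasting 9 were tested, 0 higher and 1 lower. The lower one was Cpt1a, the gate of mitochondrial fatty acid oxidation, with 11.22, 10.91, 10.76 and 10.82 in the alcohol mice and 11.40, 11.46, 11.46 and 11.69 in the control mice (difference -0.57, adjusted p = 0.0107 by limma).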
